A study of Mus musculus with 23 samples.

Results

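A set of 299 transcripts was read whose level was higher in each of the 12 libraries taken 12 weeks after surgery than in any of the 10 usable libraries taken 6 weeks after surgery. Levels were in CPM: the estimated count of a transcript, divided by the sum of its library's column and multiplied by 1000000 (M). A transcript entered if its mean over the 22 libraries was above 1 CPM and its lowest 12-week CPM exceeded its highest 6-week CPM. Of 90308 transcript models in the table, 40617 passed the minimum mean and 299 met the rule, which is 0.736% of the eligible transcripts. The mirror rule, every 6-week library above every 12-week library, was met by 24 transcripts, or 0.0591%. The members were therefore chosen on the difference between the times. That difference is described here without a test, and tests were kept to genotype and surgery inside each time.

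The tissue was cartilage micro-dissected from the knees of male mice of the strain labelled C57BL/6-129. Mice labelled TET1+/+ are called WT here and mice labelled TET-/- are called KO. They had destabilization of the medial meniscus (DMM) or a sham operation at 3 to 4 months of age and were sampled 6 or 12 weeks later. The 8 groups (WT sham, WT DMM, KO sham and KO DMM at each time) have 3 samples each, except WT sham at 6 weeks, which has 2. The labels call the sham contralateral in 1 place and age-matched in another, so it is not settled whether sham and DMM knees share mice. The labels do not say which exons the mutant allele lacks.

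The libraries of each time were indexed, pooled and sequenced apart from those of the other time, per the labels' protocols. Time after surgery, age at collection and sequencing run therefore cannot be told apart, and this applies to every difference between 6 and 12 weeks given here. In bulk tissue, fewer cells of a type and less RNA per cell cannot be told apart either. The labels give separate samples but do not say that each came from its own mouse, so p-values measure the spread between these samples.

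Articular cartilage holds chondrocytes in a matrix of type II collagen and aggrecan, and DMM makes the mouse knee unstable, so that the matrix is lost slowly from the medial side. Tet1 encodes an enzyme that oxidizes methylated cytosine in DNA to 5-hydroxymethylcytosine, a mark often found in the bodies and enhancers of expressed genes. The transcripts carry either a UCSC identifier, which starts with uc and stands for an annotated model, or an MSTRG identifier. An MSTRG name is given by a transcript assembler: the number after MSTRG marks a locus, and the last number marks a model of that locus. Models of 1 locus share exons, so the count of each depends on how reads are divided among them. None of the 90308 names was paired with a gene in the sources used here (0 names matched), so members are given by identifier, their functions are not stated, and neither Tet1 nor markers of cartilage, bone, synovium, muscle or blood could be read.

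Column totals ran from 34.9 to 85.7 M counts at 6 weeks and from 46.5 to 113 M at 12 weeks. The libraries held 50276 to 55970 detected transcripts at 6 weeks and 54358 to 59267 at 12 weeks. The counts of the first WT sham replicate at 6 weeks were misaligned with the transcript identifiers, with Spearman correlations to other libraries of 0.0149 to 0.0294, against 0.610 to 0.764 between those libraries. That column was left out throughout. WT sham at 6 weeks was thus 1 library. Thinning every library to 34.9 M counts kept 278 of the 299 members in the set.

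The members were moderately abundant transcripts at 12 weeks. Their mean 12-week levels ran from 1.71 to 559 CPM with a median of 17.1 CPM, against a median of 5.68 CPM for all eligible transcripts. Their mean 6-week levels had a median of 2.86 CPM, against 5.31 CPM. The ratio of the 12-week to the 6-week mean had a median of 5.77 over the 291 members with any 6-week count, and ran from 1.28 to 3409. Added together, the members took between 1708 and 3636 CPM of a 6-week library, with a median of 2276 CPM. They took between 7947 and 11499 CPM of a 12-week library, with a median of 9893 CPM. The set thus amounted to 0.171% to 0.364% of the counts at 6 weeks and to 0.795% to 1.15% at 12 weeks.

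**Figure D1:**
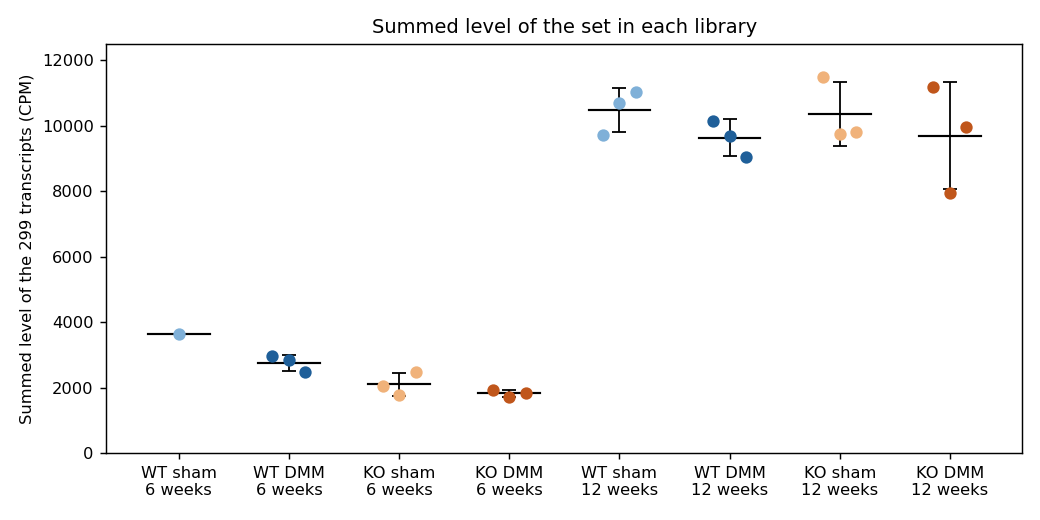
Summed level of the 299 transcripts (CPM, linear axis from 0) in each library, by genotype, surgery and time; points are libraries, lines are group means and bars are 1 SD. The 12-week libraries sit between 7947 and 11499 CPM and the 6-week libraries between 1708 and 3636 CPM, which the rule fixed; within 6 weeks the 4 WT libraries lie at or above 2497 CPM and the 6 KO libraries at or below 2486 CPM.

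Members were steadier across the 12-week libraries than eligible transcripts were. The coefficient of variation over the 12 libraries had a median of 29.3% for members and 51.0% for eligible transcripts. Over the 10 6-week libraries the medians were 61.6% and 58.5%. A low spread at 12 weeks favours passing the rule, so these values describe the choice of members.

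Most members passed by a modest margin. The lowest 12-week value was at least 2 times the highest 6-week value in 83 of the 299 members, more than 3 times in 38, more than 5 times in 21 and more than 10 times in 16. These counts include the 8 members at 0 in every 6-week library. Within 10% of the boundary, 64 members lay inside it, and 126 transcripts lay outside it with a ratio of 0.9 to 1. Just inside, uc008ujc.1 had a lowest 12-week level of 131.7 CPM and a highest 6-week level of 131.6 CPM, and uc009nbh.2 had 2.002 and 2.000 CPM. Just outside, uc007amb.1 had 43.27 CPM at its lowest in 12-week libraries and 43.31 CPM at its highest in 6-week libraries. For uc009gie.1 both values rounded to 4.47 CPM.

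**Figure D2:**
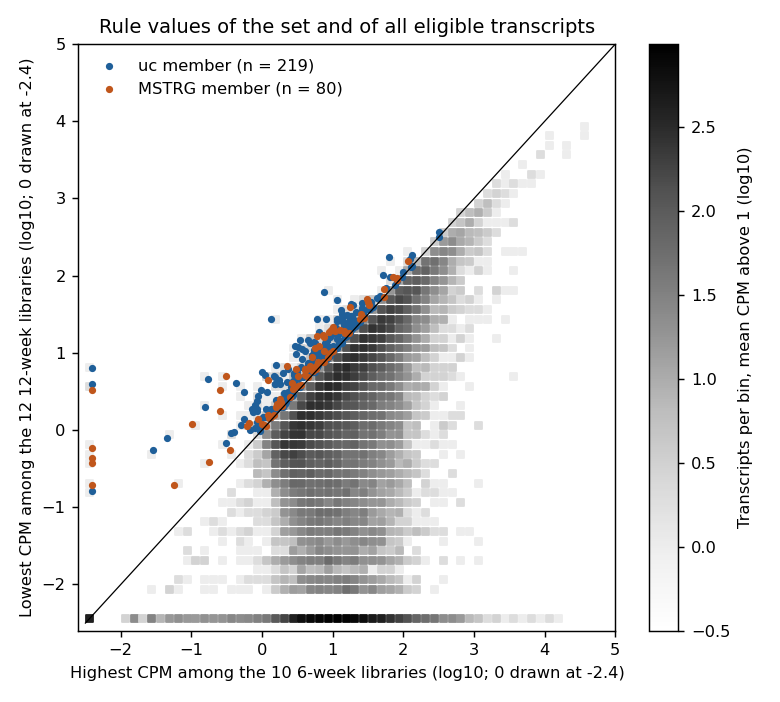
Highest level among the 6-week libraries against lowest level among the 12-week libraries (log10 CPM, zeros drawn at -2.4) for members with uc names (blue, n = 219) and MSTRG names (orange, n = 80), over the density of all 40617 eligible transcripts (grey, log10 number per bin). All members lie above the line of equal values by construction, many of them close to it, and the 8 points at the left edge are the members at 0 in every 6-week library.

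The boundary rested unevenly on the libraries. Among the 291 members with any 6-week count, the highest 6-week value was in the single WT sham library in 124, in WT DMM replicate 1 in 43, in WT DMM replicate 2 in 35 and in KO DMM replicate 1 in 29. The lowest 12-week value was in KO DMM replicate 2, the shallowest of the 12 at 46.5 M counts, in 85 members and in WT DMM replicate 3, with 100.1 M counts, in 75. Without the WT sham library the rule would admit 445 transcripts, and without KO DMM replicate 2 at 12 weeks it would admit 373. Leaving out any 1 of the other libraries gave 300 to 346.

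The most abundant members were detected at both times. The transcript uc007fep.2 ranged from 178 to 319 CPM at 6 weeks, with a median of 255 CPM, and from 365 to 748 CPM at 12 weeks, with a median of 615 CPM. Its 12-week mean of 559 ± 125 CPM (SD, n = 12) was 2.18 times its 6-week mean of 257 ± 49.5 CPM (SD, n = 10). It is the member with the highest level, and its fold is among the smaller ones of the set.

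In uc007ivb.1 the 6-week libraries were far apart and the 12-week libraries close together. At 6 weeks it stood at 317 CPM in WT sham, at 167, 192 and 164 CPM in WT DMM, at 32, 15.1 and 161 CPM in KO sham and at 34.7, 16.7 and 21.6 CPM in KO DMM. At 12 weeks it lay between 318 and 387 CPM, with a median of 355 CPM. All 4 WT libraries at 6 weeks were above all 6 KO libraries, and the third KO sham replicate was close to WT DMM. At 12 weeks the group means were 339 ± 9.5 CPM in WT sham, 365 ± 17.7 in WT DMM, 371 ± 18.3 in KO sham and 363 ± 39.3 in KO DMM (SD, n = 3 each).

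The next members by level were uc008ptc.2, uc009csc.1 and uc007gkq.1. The first ran from 26.4 to 124 CPM at 6 weeks (median 63.5 CPM) and from 165 to 407 CPM at 12 weeks (median 276 CPM). For uc009csc.1 the ranges were 47.4 to 133 CPM (median 64.0 CPM) and 186 to 287 CPM (median 244 CPM). For uc007gkq.1 they were 18.8 to 63.5 CPM (median 27.7 CPM) and 173 to 305 CPM (median 192 CPM). In all 3 the highest 6-week value was that of the WT sham library.

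The widest margins belonged to members that were near 0 at 6 weeks. Of the members with at least 3 counts in some 6-week library, uc008sxz.2 had the largest ratio of lowest 12-week to highest 6-week level, 26.7. It was at 0 in 4 of the 10 6-week libraries and at most 0.172 CPM (7 counts) in the others, and ran from 4.59 to 12.2 CPM at 12 weeks with a median of 8.73 CPM. The transcript uc008fov.1 was at 0 in 9 6-week libraries and at 1.35 CPM (54 counts) in KO sham replicate 1. In the further library recovered below, from the 6-week WT sham side, it was above its lowest 12-week level. Its low level thus holds for the 6-week libraries of the rule only. At 12 weeks it ran from 27 CPM in WT DMM replicate 3 to 131 CPM in KO sham replicate 1, with a median of 80.5 CPM.

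Among the assembled models, MSTRG.4439.5 was at 0 in 5 6-week libraries and at most 0.312 CPM in the rest. At 12 weeks it varied widely, from 4.96 CPM in KO DMM replicate 2 and 5.48 CPM in WT sham replicate 1 to 58.2 CPM in KO sham replicate 3, with a median of 31.2 CPM. By contrast, MSTRG.22488.4 varied little at 12 weeks, from 3.31 to 5.57 CPM, after 0 in 7 6-week libraries and at most 0.257 CPM in the others. The fifth of this group, uc008pay.3, reached at most 3 counts in a 6-week library and ran from 0.781 to 8.31 CPM at 12 weeks, with a median of 2.04 CPM.

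A zero in some 6-week library was about as frequent among members as among eligible transcripts, and the share at 0 in all of them was higher. Of the 299 members, 199 (66.6%) were detected in every 6-week library, against 68.7% of the eligible transcripts. A further 59 were at 0 in 1 to 4 6-week libraries, 33 in 5 to 9, and 8 (2.68%) in all 10, against 1.04% of eligible transcripts at 0 in all 10. An eligible transcript at 0 in all 10 passes the rule whenever its 12-week values are all above 0. The higher share therefore describes the choice of members. No member was at 0 in any 12-week library, which follows from the rule. A library at 6 weeks held 27 to 57 members at 0. After thinning to equal totals, 8 members were still at 0 in all 6-week libraries and 106 were at 0 in at least 1, against 100 without thinning, and 0 members were at 0 in a thinned 12-week library. Thinning matched the column totals and no other measure of depth.

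**Figure D3:**
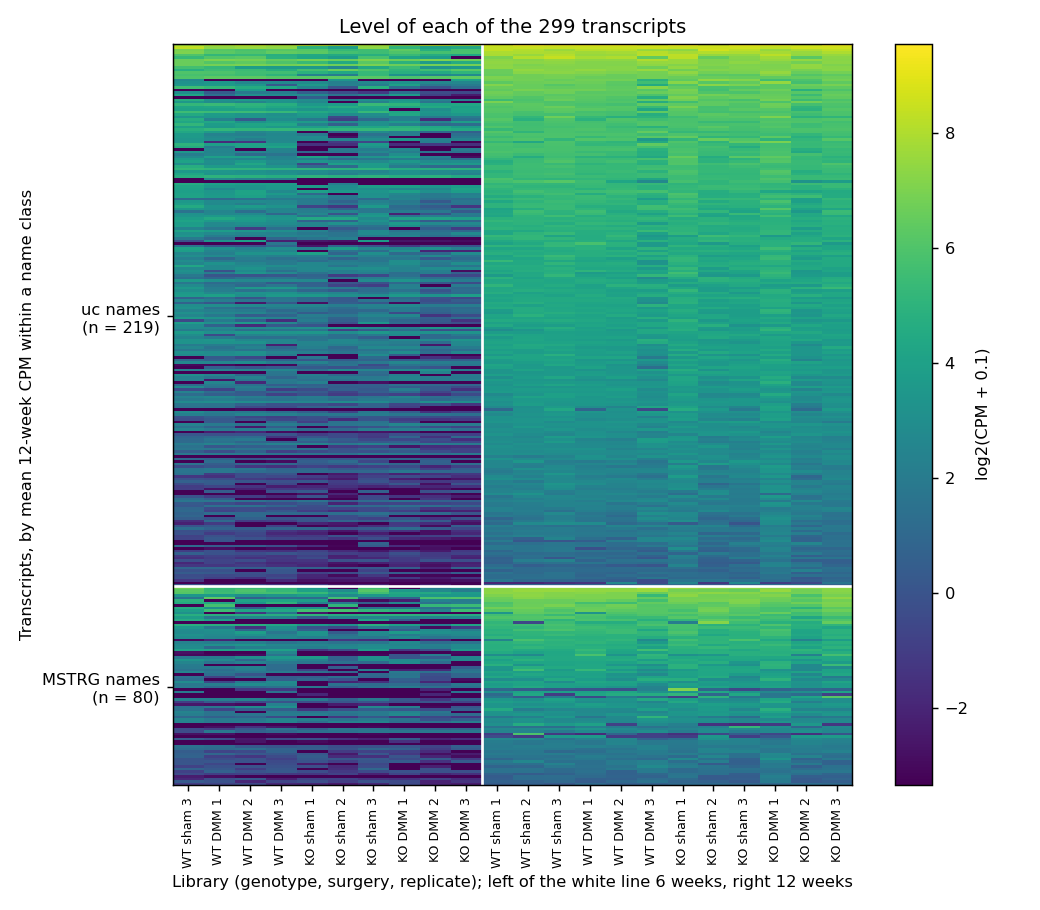
Level of each of the 299 transcripts, as log2(CPM + 0.1), in the 10 6-week libraries (left of the vertical white line) and the 12 12-week libraries (right), ordered by mean 12-week level within uc names (top, n = 219) and MSTRG names (bottom, n = 80). Dark cells are at or near 0: they appear at 6 weeks in 100 members with 37 to 57 of them in a KO column and 27 to 40 in a WT column, and 8 rows are dark in all 10 6-week columns.

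The 8 members at 0 in all 6-week libraries were 3 of 219 uc members and 5 of 80 MSTRG members. The highest floor at 12 weeks among them was that of uc009iau.2, at 49.4, 59.6 and 70.6 CPM in WT sham, 44.4, 18.9 and 6.36 CPM in WT DMM, 54.3, 34.1 and 45.3 CPM in KO sham and 52.1, 9.59 and 13.5 CPM in KO DMM. With a floor of 3 counts over the 10 6-week libraries together, its 12-week mean was at least 7581-fold higher. The DMM libraries reached lower values than the sham libraries in this transcript. The ranges of sham and DMM did not overlap in WT, but they did in KO and over both genotypes together.

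The other all-zero members were lower or more variable. At 12 weeks uc011zfw.2 ran from 4.00 to 10.5 CPM with a median of 7.03 CPM, at least 1431-fold above the same floor. MSTRG.22488.5 ran from 3.27 to 5.69 CPM (median 4.21 CPM, at least 848-fold). MSTRG.19317.2 ran from 0.584 to 147 CPM (median 31.6 CPM), and its lowest and second lowest values, 0.584 CPM in WT sham replicate 2 and 4.31 CPM in KO sham replicate 1, were far below the other libraries. MSTRG.2549.4 ran from 0.435 to 72.8 CPM with a median of 3.33 CPM. Their 12-week levels are too far apart for a fold of means, and none is given for these last 2. The remaining 3, uc012gdj.1, MSTRG.14986.1 and MSTRG.192.3, had medians of 0.496, 5.73 and 0.860 CPM and lowest values of 0.162, 0.194 and 0.377 CPM.

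Assembled names were less common in the set than among eligible transcripts. MSTRG names made up 80 of the 299 members, or 26.8% (exact binomial 95% interval 21.8% to 32.2%, counting error only), against 42.6% (17310) of the 40617 eligible transcripts. Transcripts of a locus are not independent, so the interval is a lower limit on the uncertainty. In the mirror set 13 of 24 carried MSTRG names. The names split the members by level only slightly: the median of the mean 12-week levels was 18.5 CPM for uc members and 13.7 CPM for MSTRG members. The median ratio of 12-week to 6-week mean was 5.75 over 216 uc members and 5.83 over 75 MSTRG members with any 6-week count. Zeros differed more. At least 1 6-week library was at 0 in 62 of 219 uc members (28.3%) and in 38 of 80 MSTRG members (47.5%), and all 10 were at 0 in 1.37% and 6.25%. Over eligible transcripts of both name classes together these shares were 31.3% and 1.04%. They were not split by name class, so the difference may not be particular to members.

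The 80 assembled members came from 76 loci. In 40 loci the member was the only model in the table, and 4 loci held 2 members each. In 31 loci at least 1 other assembled model had a mean above 1 CPM. Loci were read from the MSTRG numbers alone, so uc models lying in the same locus could not be seen and are not in the totals. Over all models of a locus, 58 of the 76 locus totals were themselves higher in every 12-week library than in every 6-week library. In the 40 loci with 1 model, and where every model was a member, the rule fixed this. Of all 9184 assembled loci with a mean total above 1 CPM, 73 (0.795%) had such totals, and these include the 58. The counts are therefore not a comparison of separate loci, and the first largely describes the choice of members.

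In the 31 loci with other expressed models, the difference between the times was usually uneven among the models. The locus total was higher in every 12-week library in 13 of the 31. The sum of the non-member models was higher on average at 12 weeks in 26 loci and lower in 5, with a median ratio of 2.08, and it was higher in every 12-week library in 2, those of MSTRG.5165.3 and MSTRG.192.3. The members' share of the locus total had a median of 18.0% at 6 weeks and 49.7% at 12 weeks. In 7 loci the members went from the smaller to the larger part of the total. Members were chosen for being higher at 12 weeks, so a larger share at that time is a description of the choice.

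**Figure D4:**
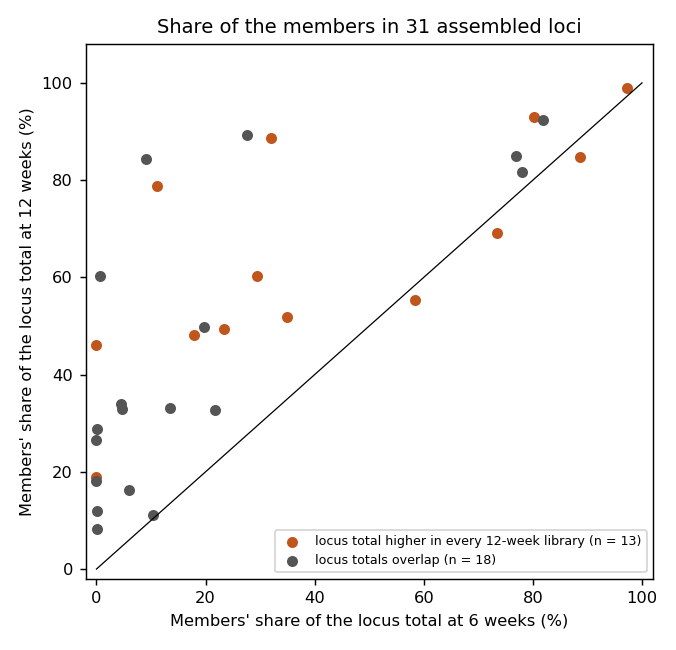
Members' share of the summed level of their assembled locus (percent) at 6 weeks against 12 weeks, for the 31 loci with other expressed models; orange loci have a total that was higher in every 12-week library (n = 13) and grey loci have overlapping totals (n = 18). Most points lie above the line of equal shares, and the medians are 18.0% at 6 weeks and 49.7% at 12 weeks.

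In locus 22488 the members are 2 minor models and the locus total was alike at both times. Its members MSTRG.22488.4 and MSTRG.22488.5 summed to 0.0340 CPM at 6 weeks and 8.63 CPM at 12 weeks. The 10 other models of the locus summed to 103 ± 22.4 CPM at 6 weeks (SD, n = 10) and 94.9 ± 43.1 CPM at 12 weeks (SD, n = 12). The locus total was 103 CPM at 6 weeks and 104 CPM at 12 weeks. The members' share of it went from 0.0329% to 8.34%. In each of the 12 libraries at 12 weeks MSTRG.22488.4 and MSTRG.22488.5 had nearly the same level, for example 4.21 and 4.03 CPM in WT sham replicate 1 and 5.57 and 5.42 CPM in KO DMM replicate 2.

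Locus 16822 has 16 models, of which 2 are members, and at 6 weeks these were either near 0 or high. MSTRG.16822.14 was at 53.5 CPM in WT DMM replicate 1, 35.6 CPM in KO sham replicate 2, and 37.8 and 42.9 CPM in KO DMM replicates 2 and 3, and at 0 in the other 6 6-week libraries. MSTRG.16822.21 was at 82.1, 52.1, 57.6 and 66.2 CPM in those same 4 libraries and between 1.46 and 3.06 CPM in the other 6. At 12 weeks the first ran from 67.7 to 126 CPM and the second from 87.8 to 171 CPM. The 4 libraries come from 3 groups, so genotype and surgery do not sort them. The other 14 models of the locus summed to 283 ± 99.3 CPM at 6 weeks and 421 ± 149 CPM at 12 weeks, and the ranges of their sum overlapped.

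The other loci with 2 members, 11187 and 19392, held no other model. The total of locus 11187 was 3.48 ± 4.11 CPM at 6 weeks and 41.9 ± 9.80 CPM at 12 weeks. The total of locus 19392 was 4.07 ± 2.40 CPM and 23.8 ± 5.30 CPM (SD, n = 10 and 12). In these loci the member values and the locus values are the same.

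Of the loci with 1 member and other expressed models, the 3 with the most abundant members are described. In locus 10654 the member MSTRG.10654.4 was nearly the whole locus, with 97.2% of the total at 6 weeks and 99% at 12 weeks. It ran from 13.3 to 70.6 CPM at 6 weeks (median 42.3 CPM) and from 95.6 to 165 CPM at 12 weeks (median 145 CPM). In locus 1397 the member MSTRG.1397.4 had means of 9.04 and 101 CPM, while the other 4 models summed to 19.2 ± 6.06 CPM at 6 weeks and 13.0 ± 2.36 CPM at 12 weeks. The member's share there went from 32% to 88.6%.

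In locus 5165 the member and the rest were both higher at 12 weeks. The member MSTRG.5165.3 had means of 11.2 and 88.9 CPM, and the 3 other models summed to 1.43 ± 1.70 CPM at 6 weeks and 16 ± 8.82 CPM at 12 weeks. This rest ran from 0 to 4.76 CPM at 6 weeks and from 6.93 to 29.5 CPM at 12 weeks, without overlap, and the member's share stayed near the same level, at 88.7% and 84.8%.

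A further library, which the rule did not use, could be set beside the boundary. The authors' deposited tables that involve WT sham at 6 weeks give mean normalized counts that contain another library besides the known columns, and its counts could be recovered by subtraction (whole numbers within 0.0149). It entered on the sham side of the comparison: all 502 transcripts found only in it had a negative log2 fold change of DMM minus sham. The sample it belongs to is not known here. It is shallow, with 5.87 M counts and 29082 detected transcripts, so 3 counts in it are 0.511 CPM. In it 210 of the 299 members (70.2%) were below their lowest 12-week level. Among the 227 members detected in it, 138 were below that level, and the rest of the 210 were at 0. The rule kept the lowest 12-week level above 0 in all members, so the share is given without one over other transcripts. The members summed to 4850 CPM there, between the 2 times, and 143 were above their highest 6-week level. The share of eligible transcripts above theirs was not read, so this count is not a trait of the members. Of the members, 72 (24.1%) were at 0, against 44.2% of the eligible transcripts. The authors' deposited table of WT DMM against WT sham at 6 weeks, which holds this library, calls 9 of 275 members, 1 higher and 8 lower in DMM, against 5.57% of its transcripts.

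Genotype differences within the set were looked for at 6 weeks first. Between KO and WT DMM, edgeR's quasi-likelihood test called 0 of the 286 members it tested at an adjusted p below 0.05, and called 4 of all 61212 transcripts tested (0.00653%). The other 13 members did not pass its filter on low counts. Shares over all transcripts, here and below, include many under the minimum mean of 1 CPM, so they are not shares over transcripts of like level. At an unadjusted p below 0.05 stood 49 members (17.1%), of which 48 were lower and 1 higher in KO, against 3708 transcripts (6.06%) in all. The count was 28 or 29 when KO DMM replicate 2 or 3 was left out, in that order, and 32 when WT DMM replicate 1 was. An edgeR fit of all 22 libraries together called 6 of 299 members, 5 of them lower in KO, against 0.12% of all transcripts. DESeq2 (Wald test) called 26 of 271 members, 25 of them lower in KO, against 3.36% of all transcripts. The authors' deposited table of this comparison calls 41 of 263 members (15.6%), 40 lower and 1 higher in KO, against 4.57% of its transcripts.

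The direction was shared by most members whether or not a test called them. In the edgeR fit 226 of 286 members (79.0%) had a negative log2 fold change, 58 had a positive value and 2 were at 0 in all 6 DMM libraries, with a median of -0.53. With 1 library left out the median ran from -0.84 without KO DMM replicate 1 to -0.39 without WT DMM replicate 1, and 16.8% to 30.2% of members were positive. Over all transcripts tested 48.3% were negative and 49.9% positive. Members with uc names were lower in KO in 177 of 213 and members with MSTRG names in 49 of 73, with medians of -0.53 and -0.52. Over all 6-week libraries the mean of the 4 WT libraries was above that of the 6 KO libraries in 239 members (79.9%), against 48.8% of eligible transcripts. In 27 members (9.03%) every WT library was above every KO library, against 1.41% of eligible transcripts, and in 1 member every KO library was above every WT library, against 1.09%. Surgery is not balanced in these comparisons over all 6-week libraries: WT holds 1 sham and 3 DMM libraries, and KO holds 3 of each. The rule capped each member at 6 weeks by its highest library, whatever its genotype, and did not use the difference between genotypes. It did use these same 6-week libraries, so the shares may describe in part the choice of members. All members were read from the same few libraries, so counts of members are not counts of independent results.

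The summed level showed the same order. Group means were 3636 CPM in the WT sham library, 2767 ± 242 CPM in WT DMM, 2108 ± 359 CPM in KO sham and 1829 ± 115 CPM in KO DMM (SD, n = 3 where given). The lowest WT library, WT DMM replicate 3 at 2497 CPM, and the highest KO library, KO sham replicate 3 at 2486 CPM, nearly met. Totals were 34.9 to 85.7 M counts in WT and 40.1 to 70.4 M in KO, with 50796 to 55970 and 50276 to 54754 detected transcripts. The part of depth in the difference was not tested. KO libraries held 37 to 57 members at 0 and WT libraries 27 to 40. The WT sham library, in which many members had their highest 6-week value, was above all 3 KO sham libraries in 188 members (62.9%), against 27% of eligible transcripts. With 1 WT sham library, that comparison has no replicate check on the WT side.

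**Figure D5:**
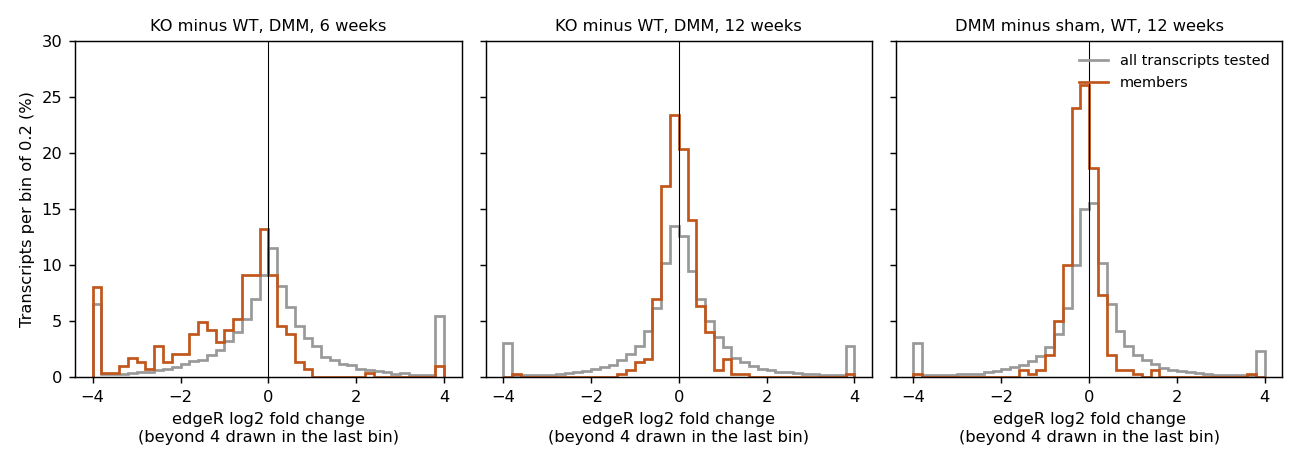
Distribution of edgeR log2 fold changes for the members (orange) and for all transcripts tested (grey), as the percent of transcripts per bin of 0.2, for KO minus WT DMM at 6 weeks, KO minus WT DMM at 12 weeks and DMM minus sham in WT at 12 weeks; values beyond 4 are drawn in the last bin. At 6 weeks the members lie to the left of 0 (median -0.53), at 12 weeks their genotype differences centre near 0 (median -0.02, from -0.22 to 0.11 with 1 library left out) and their surgery differences in WT lie slightly to the left (median -0.14). The rule favoured a low spread at 12 weeks, so the narrow 12-week distributions describe in part the choice of members.

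For the 40 members that the authors' deposited table calls lower in KO DMM at 6 weeks, its log2 fold changes had a median of -2.55, and the change nearest to 0 was -0.93. The median of their group means was 13.3 CPM in WT sham, 10.5 CPM in WT DMM, 3.51 CPM in KO sham and 1.36 CPM in KO DMM at 6 weeks. At 12 weeks the medians were 31.5, 30.1, 29.0 and 30.4 CPM in the same order. Their levels thus stood apart by genotype at 6 weeks, the difference the table was read for, and lay close together at 12 weeks. The rule kept every 12-week KO library above every 6-week WT library. A transcript below the 6-week WT level in KO at both times could not be a member. The closeness at 12 weeks therefore describes in part the choice of members. In 6 of the 40 all 3 KO DMM libraries were at 0. KO sham replicate 3 was the highest of the 6 KO libraries in 30 of the 40.

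Examples chosen after their values were seen are the 2 with the smallest adjusted p in the authors' deposited table. At 6 weeks uc033fos.1 was at 31.5 CPM in WT sham and 15.3, 17.0 and 12.8 CPM in WT DMM. It was at 0.274, 0.227 and 12.9 CPM in KO sham and at 0.225, 0.360 and 0.233 CPM in KO DMM. The authors' deposited table gives it a log2 fold change of -5.78 (SE 0.35) and an adjusted p of 3.6e-56. The third KO sham replicate stood at the WT DMM level and the other 5 KO libraries stood below 0.4 CPM. At 12 weeks the transcript ran from 36.8 to 84.5 CPM.

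At 6 weeks uc009kfe.1 was at 25 CPM in WT sham and at 15, 14.2 and 14.2 CPM in WT DMM. In KO it was at 4.40 CPM in KO sham replicate 2 and at 0 in the other 5 libraries. The authors' deposited table gives a log2 fold change of -12.30 (SE 1.21) with an adjusted p of 3.83e-21. At 12 weeks it ran from 33.3 to 43.1 CPM, with a mean of 38.2 ± 3.16 CPM in WT DMM and 39.6 CPM in KO DMM.

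Under the rule for naming, the smallest p at 6 weeks belonged to uc008iyd.1, the 1 member higher in KO among the 49 at an unadjusted p below 0.05. It was at 0.0253 CPM in WT sham and at 0.0282, 0 and 0.0233 CPM in WT DMM. It was at 1.99, 2.94 and 0.675 CPM in KO sham and at 2.90, 2.83 and 3.12 CPM in KO DMM. The genotypes did not overlap in these libraries. In the recovered library, which entered on the WT sham side, its level was above its lowest 12-week level. There it was thus also above all KO libraries at 6 weeks. Its log2 fold change between KO and WT DMM was 7.11 (SE 1.12), with an adjusted p of 0.380 by edgeR that ran from 1.4e-10 with DESeq2 to 0.872 over the alternatives. At 12 weeks its group means lay between 9.71 and 17.2 CPM, with overlapping ranges.

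Surgery could be tested in KO alone at 6 weeks, since WT sham was 1 library. Between KO DMM and KO sham, edgeR called 0 of 286 members and 3 of all transcripts (0.0049%). At an unadjusted p below 0.05 stood 12 members (4.20%), 11 of them lower in DMM, against 3.46% of all transcripts. That count was 21 without KO sham replicate 2, and 5, 6 and 7 without KO DMM replicate 3, KO DMM replicate 2 and KO sham replicate 3. DESeq2 called 3 of 271 members, uc008yac.2, uc007dks.2 and uc012ecd.1, all lower in DMM, against 1.63%. The member with the smallest p was uc007ekr.2, at 0.175, 0.0284 and 0.338 CPM in KO sham and at 0.0161, 0.0150 and 0 CPM in KO DMM. Its log2 fold change was -3.80 (SE 1.16, edgeR adjusted p = 1, from 0.0953 to 1 over the alternatives). It stood between 0.525 and 0.734 CPM in the 4 WT libraries, above all 6 KO libraries, and between 1.72 and 2.77 CPM at 12 weeks.

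At 12 weeks no genotype difference in the set passed the edgeR test. The rule favoured transcripts with a low spread over the 12-week libraries. Small differences and low shares at that time therefore describe in part the choice of members. Between KO and WT DMM edgeR called 0 of 299 members, against 5 of 57350 transcripts (0.00872%). At an unadjusted p below 0.05 stood 8 members (2.68%), 4 higher and 4 lower in KO, against 3.95%. DESeq2 called 2 of 296 members, uc007fzi.1 (lower in KO) and MSTRG.6121.4 (higher), against 1.92%. The authors' deposited table calls 2 of 299, uc007fzi.1 and MSTRG.642.10, both lower in KO, against 1.43%. The median log2 fold change of the members was -0.02, with 48.2% positive. Leaving out KO DMM replicate 1 gave -0.22 (32.1% positive), and leaving out KO DMM replicate 2 gave 0.11 (63.2% positive), so the value near 0 stands between libraries that move it in opposite directions. Between KO and WT sham edgeR called 0 members, against 0.00523% of transcripts, with 7 members (2.34%) at an unadjusted p below 0.05, against 4.25%. DESeq2 called 2 of 296 there, MSTRG.5859.1 (lower in KO) and uc012gdj.1 (higher), against 1.87%. Members outside the rule for naming that are given with such small counts were picked after their values were seen.

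Averaged over surgery, the genotype difference at 12 weeks was called in 0 members by edgeR, against 0.00872% of transcripts, with 13 members (4.35%) at an unadjusted p below 0.05, against 5.47%. DESeq2 called 4 of 296, against 2.58%: MSTRG.6121.4 was higher in KO, and uc007fzi.1, MSTRG.5859.1 and MSTRG.15858.1 were lower. The interaction of genotype and surgery was called in 0 members, against 0.00174%, with 5 (1.67%) at an unadjusted p below 0.05 (uc007fzi.1, uc012gdj.1, MSTRG.11187.1, MSTRG.642.10 and MSTRG.10966.1), against 3.75%. DESeq2 called 0 members for it, against 2.03%. In 0 members did all 6 WT libraries lie above all 6 KO libraries or below them, against 0.128% and 0.249% of eligible transcripts. With shares this small, a count of 0 in a set of this size says little. The summed levels overlapped, from 9056 to 11023 CPM in WT and from 7947 to 11499 CPM in KO.

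The member with the smallest p for genotype at 12 weeks was uc007fzi.1. It was at 45.4, 49.2 and 53.8 CPM in WT DMM and at 19.3, 18.1 and 23.5 CPM in KO DMM, with no overlap. In WT sham it was at 31.1, 49.5 and 40.5 CPM and in KO sham at 35.3, 25.7 and 36.4 CPM, where the ranges overlapped. The log2 fold change in DMM was -1.35 (SE 0.25, edgeR adjusted p = 0.989, from 5.28e-05 with DESeq2 to 1 over the alternatives). The log2 interaction was -0.98 (SE 0.35, adjusted p = 1). At 6 weeks it lay between 7.07 and 17.5 CPM in every group, and the rule admitted it by 18.1 against 17.5 CPM.

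For sham libraries at 12 weeks the smallest p belonged to MSTRG.5859.1, the only model of its locus in the table. It was at 159, 189 and 188 CPM in WT sham and at 116, 109 and 93.0 CPM in KO sham, without overlap. In DMM it was at 177, 178 and 193 CPM in WT and at 189, 112 and 153 CPM in KO, which overlapped. The log2 fold change between the sham groups was -0.82 (SE 0.19, edgeR adjusted p = 1, from 0.0117 with DESeq2 to 1). At 6 weeks it was at 80.0 CPM in WT sham, 42.8, 61 and 39 CPM in WT DMM, 16.1, 7.30 and 73.4 CPM in KO sham and 12.6, 6.55 and 4.12 CPM in KO DMM. The third KO sham replicate was again near the WT values.

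Between surgeries at 12 weeks the differences were small and none passed the edgeR test. As for genotype, the rule favoured a low spread at 12 weeks, so small differences describe in part the choice of members. Negative differences were the more frequent in WT with any 1 library left out, while in KO the direction depended on the libraries kept. Between WT DMM and WT sham edgeR called 0 members, against 0.00349% of transcripts, with 5 members (1.67%) at an unadjusted p below 0.05, against 3.3%. Of these uc012gdj.1 and uc011zfw.2 were higher in DMM, and uc012bbl.1, MSTRG.21955.3 and MSTRG.20395.1 were lower. DESeq2 called 0 members, against 1.64%. The median log2 fold change was -0.14 in members and 0.00 over all transcripts, and 30.8% of members were positive, against 50.3%. Between KO DMM and KO sham edgeR called 0 members, against 0.00349%, with 7 members (2.34%) at an unadjusted p below 0.05, against 3.96%. DESeq2 called 1 of 296, MSTRG.11187.1, against 1.99%, and the median was -0.07, with 39.5% of members positive. The sign of that median rested on single libraries: it was 0.10 (57.2% positive) without KO sham replicate 1, 0.05 (55.9%) when KO DMM replicate 2 was left out and -0.28 (21.7%) when KO DMM replicate 1 was. In WT it stayed between -0.18 and -0.11 with any 1 library left out.

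Averaged over genotype, DMM minus sham was called in 0 members, against 0.00872%, with 5 members (1.67%) at an unadjusted p below 0.05, all lower in DMM (uc012bbl.1, MSTRG.648.2, MSTRG.11187.1, uc009lyf.2 and MSTRG.10654.4), against 4.52%. DESeq2 called 0 members, against 2.28%. Of the members 29.4% were positive, against 50.8% of all transcripts, with a median of -0.10. The median was -0.05 without KO DMM replicate 2 (41.5% positive) or without KO sham replicate 1 (45.2%), and -0.22 (24.1%) without KO DMM replicate 1, where 19 members stood at an unadjusted p below 0.05. The mean of the 6 sham libraries was above that of the 6 DMM libraries in 188 members (62.9%), against 48.5% of eligible transcripts. In 0 members did the sham and DMM libraries separate in either direction, against 0.0714% and 0.0665%, shares so small that the 0 says little. The summed levels were 10481 ± 682 CPM in WT sham, 9640 ± 555 CPM in WT DMM, 10361 ± 986 CPM in KO sham and 9703 ± 1642 CPM in KO DMM (SD, n = 3 each). The ranges of sham and DMM overlapped, and the 2 libraries that most often held the lowest 12-week value of a member are both DMM libraries.

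The members with the smallest p for surgery at 12 weeks showed how the spread varied among members. MSTRG.11187.1 was at 53.9, 44.1 and 44.3 CPM in KO sham and at 35.8, 27.1 and 19.2 CPM in KO DMM. It was at 35.8, 35.5 and 47.9 CPM in WT sham and at 46.5, 39.0 and 36.8 CPM in WT DMM. Its log2 fold change was -0.85 (SE 0.24) in KO, with an edgeR adjusted p of 1 that ran from 0.0169 with DESeq2 to 1. The KO groups did not overlap and the WT groups did. Averaged over genotype the smallest p was that of uc012bbl.1, with group means of 2.34 ± 0.87 CPM in WT sham, 1.11 ± 0.38 in WT DMM, 2.93 ± 0.22 in KO sham and 1.87 ± 0.52 in KO DMM. Its log2 fold change was -0.90 (SE 0.32, edgeR adjusted p = 1, from 0.0544 to 1).

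In WT the smallest p for surgery belonged to uc012gdj.1, an all-zero member at 6 weeks with an erratic 12-week level. It was at 0.168, 0.162 and 0.230 CPM in WT sham and at 0.283, 6.39 and 0.689 CPM in WT DMM. In KO it was at 5.41, 0.318 and 6.86 CPM in sham and at 0.411, 0.580 and 3.08 CPM in DMM. The log2 fold change in WT was 3.70 (SE 1.49, edgeR adjusted p = 1, from 0.163 to 1), and its mean rests on WT DMM replicate 2.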

How the data were processed

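RNA from 23 samples was sequenced after SMART-seq2 library preparation, per the labels' protocols. The submitters' processing notes name CASAVA 1.4, Trimmomatic, HISAT2, DESeq2 and the genome build mm10. The assembler and the counter are not given in the sources used here. Estimated counts of transcript models, written as whole numbers and with no normalization, were deposited by the authors. Their 4 deposited comparison tables hold, per the file headers, a mean signal (normalized counts), log2 fold changes and standard errors, a test score, and p-values with adjusted p-values.

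Groups came from sample titles. CPM was computed on column totals (34.9 to 113 M counts), and the set rule was applied to 22 libraries. WT sham replicate 1 at 6 weeks was left out because its column is misaligned with the row names. The members, lists and tests were chosen with earlier results of these data known. Genotype and surgery were tested on the whole table, each time by itself, with edgeR 4.0.16 in R 4.3.3: TMM scaling, filterByExpr by group, robust quasi-likelihood fits with 1 mean per group, and Benjamini-Hochberg adjustment over all transcripts tested, with calls below 0.05. The 6-week fit keeps the lone WT sham library and assumes that it varies like the other groups. An SE given with an edgeR log2 fold change was calculated back from the test: the absolute change over the square root of its F statistic. An SE from the authors' deposited table is the one printed there. The edgeR fits were tested on simulated data, where they recovered few of the changed transcripts at the observed spread, so a count of 0 calls says little. Alternatives were DESeq2 1.42.0, other scalings, filters, margins and depths, a replicate block, and leaving out each library. Shares called by DESeq2 are over transcripts with a p-value, including any without an adjusted p. Those of the authors' deposited tables are over transcripts with an adjusted p. The named transcripts were the 5 most abundant members, the 5 with the widest margin (at least 3 counts at 6 weeks), the 5 all-zero members with the highest lowest 12-week level, the smallest p in each of 9 contrasts, those nearest the boundary, and the loci with most members or the most abundant members. Python 3.11.15 with pandas 2.3.3 did the rest.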

Additional observations from a re-analysis of the deposited data

How the results depend on the processing

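Leaving out any 1 library gave 300 to 445 members, 7 to 13 members at 0 in all 6-week libraries (13 without KO sham replicate 3) and 24.6% to 27.9% MSTRG names. With each library of a contrast left out, edgeR called 0 members in all 9 contrasts, a count with little room to move, since those fits called 0 to 40 of all transcripts. Members at an unadjusted p below 0.05 moved more. At 12 weeks they were 5 to 9 for KO against WT in DMM, 3 (without KO sham or WT sham replicate 3) to 13 (without KO sham replicate 1) in sham, 8 to 16 for genotype averaged over surgery, 1 (without WT sham replicate 1) to 5 for surgery in WT, 2 (without KO sham replicate 3) to 9 in KO, 2 (without WT DMM replicate 3) to 19 (without KO DMM replicate 1) averaged over genotype and 1 (without KO sham replicate 3) to 7 for the interaction. A margin of 2 times left 83 members, and keeping the misaligned column left 3 all-zero members. DESeq2 called 2 members for KO against WT in DMM and 2 in sham at 12 weeks, 1 for surgery in KO, 4 for genotype averaged over surgery, 26 for KO against WT DMM at 6 weeks and 3 for KO surgery at 6 weeks. An edgeR fit of all 22 libraries called 6 for KO against WT DMM at 6 weeks, 5 of them lower, against 0.12% of all transcripts (81 of 67238). The gap between the lowest 12-week and the highest 6-week level turned negative with the recovered library for uc007fzi.1 (-22.7 CPM), uc007gkq.1 (-59.2), uc008fov.1 (-6.35), uc008iyd.1 (-6.35), uc009csc.1 (-48.6), uc008ptc.2 (-67.0), MSTRG.19392.2 (-2.44) and MSTRG.10654.4 (-59.9). It did so with TMM library sizes for MSTRG.16822.21 (-3.95), uc008ujc.1 (-13.5) and uc009nbh.2 (-0.0979), and with thinned libraries for uc007ivb.1 (-1.58). The cause was not tested. TMM library sizes kept 277 members among 311, and the recovered library kept 210.

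With a replicate block edgeR called 0 members in every contrast. Deviations of same-numbered samples correlated between -0.132 and 0.179 at 12 weeks and between -0.00564 and 0.141 at 6 weeks (medians -0.0384 and 0.0221), against -0.114 to 0.156 and -0.0994 to 0.0282 for differently numbered samples (medians 0.00657 and -0.0215). Not every same-numbered correlation was above 0.1, so the numbers were not taken to pair the samples. The block and the correlations joined same-numbered samples across genotypes, which cannot share a mouse, as well as sham and DMM within a genotype. A block within each genotype was not fitted. Whether sham and DMM knees share mice is not settled by these values. The large spread between replicates (common dispersion 1.18 at 12 weeks and 1.47 at 6 weeks) and the depth limit what could be called: a transcript at 0 in the shallowest 6-week library may lie up to 0.0860 CPM. A p above the threshold does not show that groups are alike.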
